A study of Homo sapiens with 4 samples.

Results

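The long noncoding and antisense RNAs named by the array's annotation were described in LNCaP, an established human prostate cancer line that responds to androgen. They were the probe sets whose description gave an Ensembl gene biotype of lincRNA, antisense, sense_intronic, sense_overlapping or processed_transcript, or whose single gene symbol began with LINC or ended in -AS or -IT with or without a number. Genes of the POTE family were left out. Of 33297 probe sets, 65 matched, and counting probe sets with identical values once left 61, from 58 gene names or Ensembl gene IDs. Grouped by gene biotype or by the form of the symbol, 28 were intergenic, 20 antisense, 5 sense intronic or overlapping, and 8 other processed transcripts. A symbol beginning with LINC was taken as intergenic and one ending in -AS as antisense, without a check of gene positions.

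The data were 4 Affymetrix expression arrays, 1 for each group. The groups were LNCaP cells with a control siRNA and vehicle, with the control siRNA and 10 nM dihydrotestosterone (DHT), with an siRNA against POTEF-AS1 and vehicle, and with the POTEF-AS1 siRNA and 10 nM DHT. DHT is the potent natural androgen, the vehicle was ethanol, and POTEF-AS1 is a long noncoding RNA antisense to POTEF. All cells came from culture in 10% serum, then spent 3 days without phenol red in 2.5% serum stripped with charcoal, and the siRNA was given 48 h before the hormone. How long DHT acted is not given here. The design asked which androgen-dependent changes followed the knockdown.

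Long noncoding RNAs are transcripts without a long open reading frame. Some act on chromatin or transcription near their own locus, some bind proteins in the nucleus, and some are the precursors from which microRNAs or small nucleolar RNAs are cut. Antisense RNAs run on the strand opposite a neighbouring gene and often start near its promoter. In prostate cells several RNAs of these kinds are known to respond to androgen.

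The annotation was older than current names, and it did not always mark a noncoding gene. Of 47 single symbols, 42 were found in the RefSeq table of assembly GRCh38.p14, 29 as a symbol and 13 as a synonym. RefSeq classed 34 of these 42 as long noncoding RNA, 4 as transcribed pseudogenes and 4 as protein-coding. The protein-coding entries were C14orf169 (current symbol RIOX1, a ribosomal oxygenase), TRIL, which encodes a partner of Toll-like receptors, TINCR, known as a noncoding RNA of epidermal differentiation, and LINC00610, listed as a synonym of COMMD9. Ensembl gene IDs were not paired with symbols in the tables used here.

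The member with a response to DHT past the test was LINC00478, now named MIR99AHG (ENSG00000215386; chromosome 21, 17553911 to 17979438, plus strand, GRCh37). It is the host transcript of 3 microRNA genes, MIR99A, MIRLET7C and MIR125B2. The RefSeq sequences of their 5′ arms are shown because these microRNAs are the known products of the locus. The capitals mark the seed, bases 2 to 8, by which a microRNA pairs with its targets, and the 3 seeds differ.
hsa-miR-99a-5p: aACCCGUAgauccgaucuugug
hsa-let-7c-5p: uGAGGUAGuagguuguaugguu
hsa-miR-125b-5p: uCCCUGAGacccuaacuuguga
On GRCh38.p14 they lie on the plus strand at chr21:16539101-16539122, chr21:16539838-16539859 and chr21:16590253-16590274. The array values are those of the host transcript, and the mature microRNAs were not analysed here.

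The RefSeq promoter table held 6 start sites of this gene, each with 250 bases before and 50 after the start. The window below is the one nearest to the microRNAs, whose start lies 3517 bases upstream of the MIR99A hairpin. The capitals mark exact matches on either strand to the forkhead cores TGTTTAC and TGTTTGC or to the TATA box TATAAA.
MIR99AHG, chr21:16535322-16535621, plus strand, GRCh38.p14: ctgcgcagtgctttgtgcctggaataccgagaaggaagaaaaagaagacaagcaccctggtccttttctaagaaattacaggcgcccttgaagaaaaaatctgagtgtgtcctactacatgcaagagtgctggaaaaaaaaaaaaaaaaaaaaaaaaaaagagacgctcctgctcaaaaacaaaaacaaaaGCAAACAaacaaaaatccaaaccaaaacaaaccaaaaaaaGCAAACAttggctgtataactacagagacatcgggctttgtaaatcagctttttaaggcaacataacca
GCAAACA, the reverse complement of TGTTTGC, began at 59 and at 19 bases before the start. Marked matches did not overlap. Over all member genes, 27 had 42 windows in the table. TGTTTAC was in 2.38% of them against 3.42% of all 35116 windows, and TATAAA in 11.9% against 11.5%. TGTTTGC was in 9.52% against 3.89%, and 3 of its 4 windows were those of LINC00478, of which a pair covers nearly the same bases. A match describes these letters and does not show that a factor binds there.

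Most members were dim. The median of their mean log2 signal was 5.98, against 6.82 over the 26187 annotated probe sets. A member was kept for the counts if its mean over the 4 arrays reached 6.82, the median of all annotated values. Of the 61, 19 passed, 31.1%, against 50.1% of annotated probe sets. By the grouping above these were 9 of the 28 intergenic, 5 of the 20 antisense, 1 of the 5 sense intronic or overlapping and 4 of the 8 other members. No detection call was used, so that the other 42 were not shown to lie above background. Their log2 differences are given below as descriptions without a test. Signals of different probe sets depend on their probes and are not compared as levels.

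**Figure D1:**
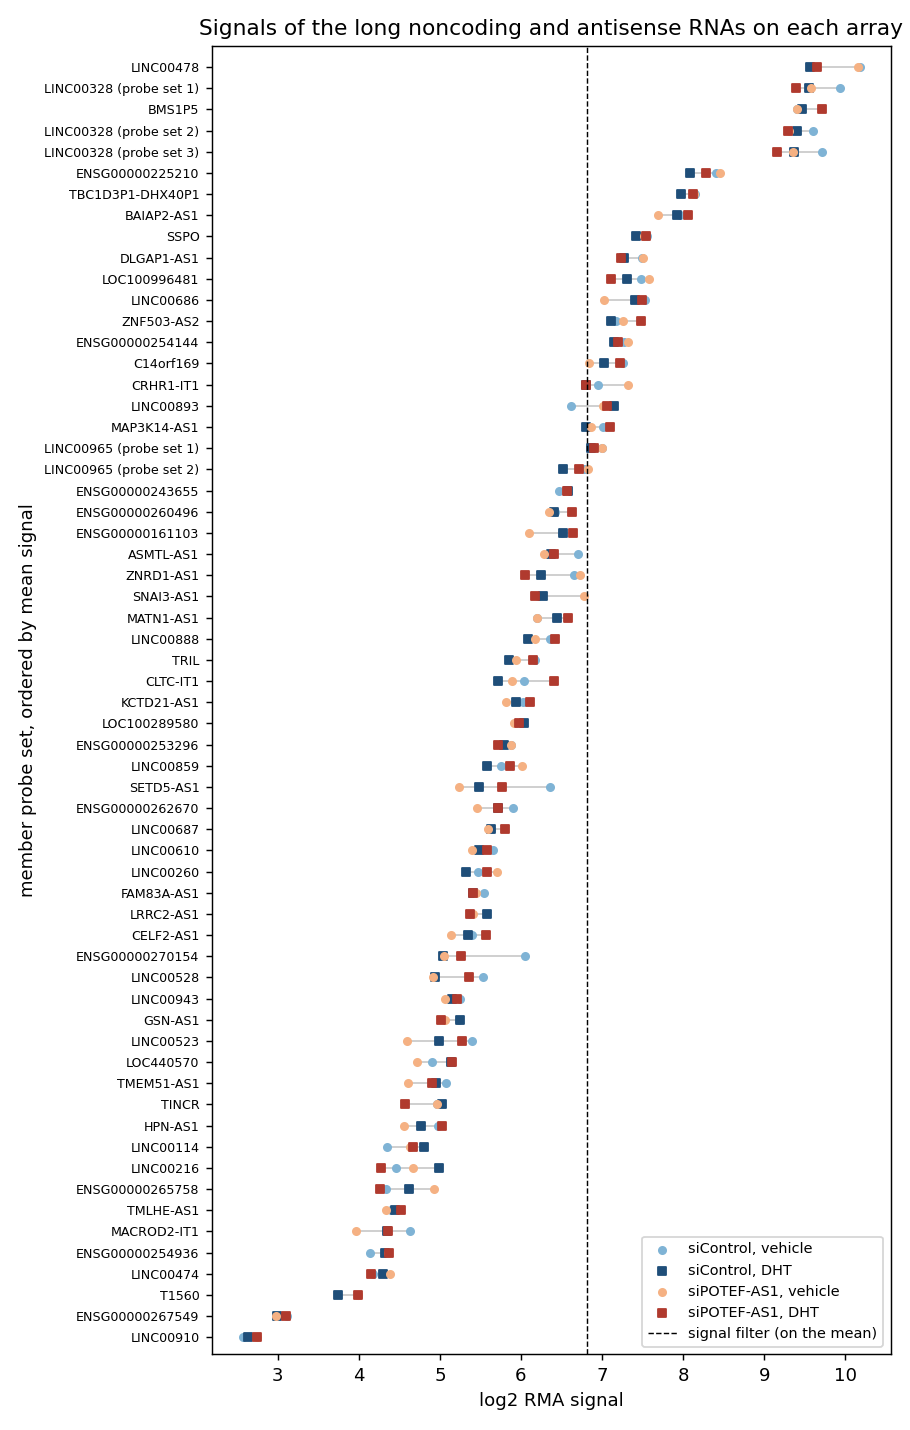
Log2 RMA signal (x axis) of each of the 61 member probe sets (y axis, ordered by mean signal) on the 4 arrays, 1 symbol per array, with the filter at 6.82 as a dashed line. For LINC00478 both vehicle arrays lie near 10.2 and both DHT arrays near 9.6, whereas SETD5-AS1 stands apart on the siControl vehicle array, at 6.36.

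LINC00478 fell with DHT in both siRNA arms. Its log2 signal was 10.18 on the siControl vehicle array and 10.16 on the siPOTEF-AS1 vehicle array, against 9.56 and 9.65 on the DHT arrays. Both vehicle arrays thus lay above both DHT arrays, and the siRNA arms lay within 0.09 of each other in either treatment. The difference with DHT was -0.62 with siControl and -0.51 with siPOTEF-AS1, a mean of -0.56 ± 0.06, the error being the distance of either arm from the mean, or 1.47-fold lower. In a model with additive siRNA and hormone terms, fitted with limma to all 13108 annotated probe sets past the filter, the DHT effect was -0.56 with a standard error of 0.09 and an adjusted p of 0.00859. The model has 1 residual degree of freedom per probe set and assumes the same DHT effect in both arms. The call was lost when dim probe sets entered the fit, at an adjusted p of 0.0642. Over its other alternatives the adjusted p lay between 0.000181 and 0.0281.

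LINC00478 was the only one of the 19 tested members past an adjusted p of 0.05, a share of 5.26%, against a background of 16.2% of probe sets called for DHT. At an unadjusted p under 0.05 there were 7 members, copies of LINC00328 among them, and the background share was 30.4%. The smallest adjusted p in limma among the others was 0.086, for LOC100996481, annotated as a processed transcript (ENSG00000146143). Its symbol was not found in the RefSeq table, so its class was not checked. It had signals of 7.48 and 7.58 in vehicle and 7.30 and 7.11 in DHT. CRHR1-IT1, annotated as an intronic transcript of the corticotropin-releasing hormone receptor gene and now named LINC02210, had 6.96 and 7.32 in vehicle and 6.81 and 6.80 in DHT, with an adjusted p of 0.0972. In both RNAs the vehicle arrays lay above the DHT arrays, and the difference was larger in siPOTEF-AS1 cells, at -0.47 and -0.53, than in siControl cells, at -0.18 and -0.15.

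LINC00328 was represented by 3 members with different values, 1 of which stood for 2 identical rows, and all were annotated by a single transcript. Such copies may read the same RNA and do not count as independent. The first had signals of 9.93 in siControl vehicle, 9.56 in siControl DHT, 9.58 in siPOTEF-AS1 vehicle and 9.39 in siPOTEF-AS1 DHT cells. The second had 9.60, 9.41, 9.31 and 9.29 on the same arrays. The third had 9.71, 9.37, 9.36 and 9.16. In each copy the siControl vehicle array was the highest and the siPOTEF-AS1 DHT array the lowest. The DHT differences ran from -0.38 to -0.20 in siControl and from -0.20 to -0.02 in siPOTEF-AS1 cells, with adjusted p-values in limma of 0.101, 0.507 and 0.107 in this order. With a filter at the 75th percentile, or with an intensity trend in limma's variance model, the first and the third also passed 0.05.

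No member past the filter differed by 2-fold with DHT in either arm, where 2.17% of annotated probe sets past the filter did so under siControl and 2.43% under siPOTEF-AS1, and 1.54% did so the same way in both. At 1.5-fold, LINC00478 in siControl cells was the only one, against 6.9% of probe sets in either direction and 3.01% lower, and there was none in siPOTEF-AS1 cells, against 8.91%, or in both arms, against 4.84%.

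The smaller differences leaned downward in siControl cells. There 17 of 19 members past the filter, 89.5%, were below 0, or 15 to 16 under the other scalings, against 54.3% of annotated probe sets, and the median was -0.17 against -0.02. In siPOTEF-AS1 cells 11 were below 0, 57.9%, or 9 to 12 under the other scalings, against 56.2%, and the median was -0.02 against -0.04. The counts of 17 and 11 include every LINC00328 copy described above, and these may read the same RNA. The 2 members above 0 in siControl cells were LINC00893 and the pseudogene transcript BMS1P5. LINC00893, now named EOLA1-DT for the gene it diverges from, had 6.62 in siControl vehicle, 7.15 in siControl DHT, 7.01 in siPOTEF-AS1 vehicle and 7.06 in siPOTEF-AS1 DHT cells. Only the siControl vehicle array was low in it, and the vehicle and DHT arrays did not overlap. BMS1P5, now BMS1P1 and related to a ribosome assembly factor gene, had 9.41, 9.47, 9.41 and 9.71, with an adjusted p of 0.287. In 9 of the 19 both vehicle arrays lay above both DHT arrays, 47.4% against a background of 35.1%, and in 2 the order was the opposite, 10.5% against 25.3%.

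A larger set of long noncoding transcripts in the same table was compared, the 511 probe sets annotated from the Rinn lincRNA and Broad TUCP catalogues, which carry no gene symbol. Of the 209 past the filter, 67.9% were below 0 with DHT under siControl and 56.9% under siPOTEF-AS1, with medians of -0.08 and -0.04. Their DHT differences correlated between the arms with r = 0.69, against r = 0.80 over all 13108 annotated probe sets and r = 0.41 over the 19 members. These correlations are descriptions across probe sets, with no array shared between the arms, and dim signals hold more noise.

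**Figure D2:**
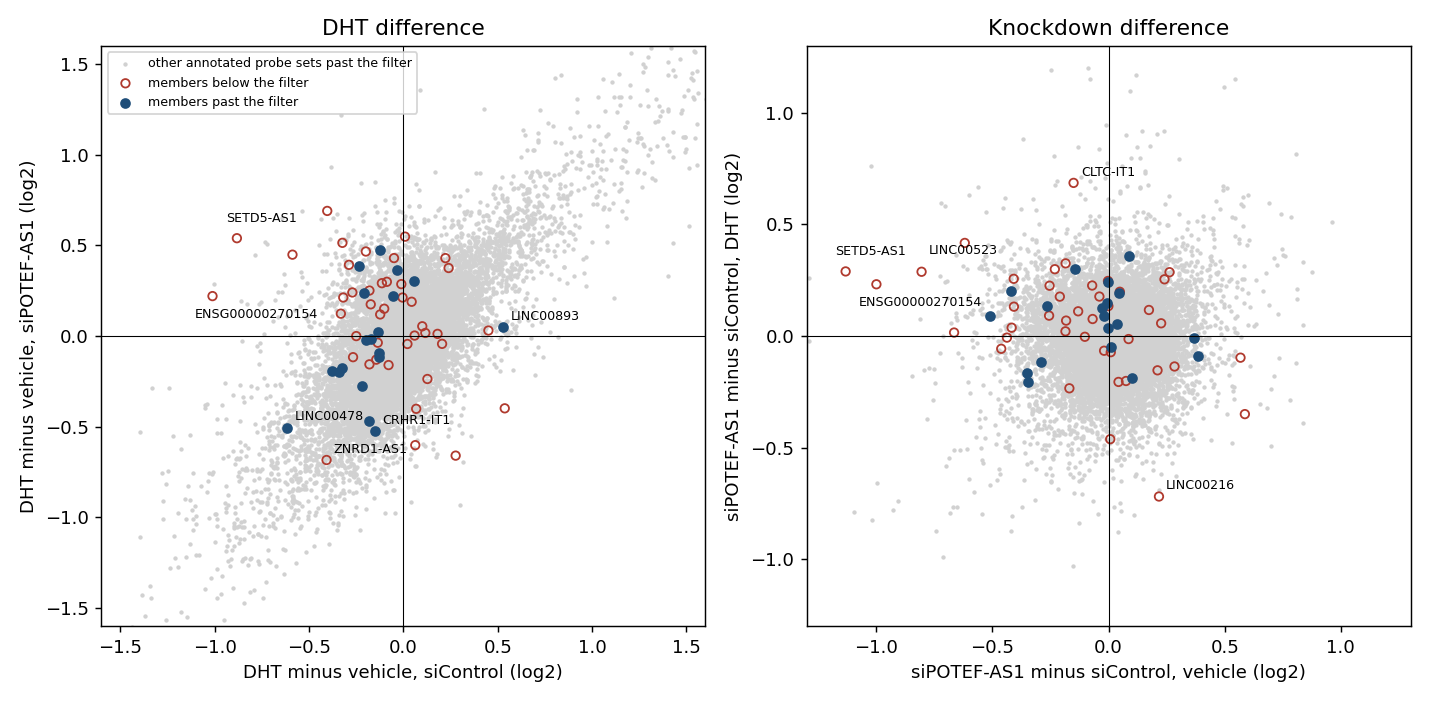
Log2 differences of the members past the filter (filled) and below it (open) and of the other annotated probe sets past it (grey). The left panel sets DHT minus vehicle in siControl cells (x) against siPOTEF-AS1 cells (y), and the right panel siPOTEF-AS1 minus siControl in vehicle (x) against DHT (y); points outside the axes are not drawn. LINC00478 lies at -0.62 and -0.51 along the diagonal of the left panel, and SETD5-AS1 lies off it, at -0.88 and 0.54.

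Antisense RNAs past the filter had small DHT differences. BAIAP2-AS1, now BAIAP2-DT and divergent from the gene of an adaptor of actin remodelling, had 7.96, 7.92, 7.69 and 8.06 in siControl vehicle, siControl DHT, siPOTEF-AS1 vehicle and siPOTEF-AS1 DHT cells, and its arrays overlapped between treatments. DLGAP1-AS1, antisense to a synaptic scaffold gene, had 7.49 and 7.50 in vehicle and 7.28 and 7.23 in DHT, a non-overlapping difference of -0.25 ± 0.03 with a limma adjusted p of 0.124. MAP3K14-AS1, opposite the gene of the NF-kB-inducing kinase, differed by -0.21 and 0.24, and ZNF503-AS2, beside a zinc finger gene, by -0.05 and 0.22. ENSG00000254144 (chromosome 8, 144624280 to 144624570, plus strand, GRCh37) differed by -0.13 and -0.11.

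The other members among the 10 highest mean signals past the filter were of mixed kinds. ENSG00000225210 (chromosome 14, 19650037 to 19687565, plus strand, GRCh37), paired with 3 uncharacterised symbols, had 8.41 and 8.45 in vehicle against 8.08 and 8.28 in DHT. TBC1D3P1-DHX40P1, a readthrough of pseudogenes, differed by -0.17 and -0.02. SSPO, the human copy of the SCO-spondin gene, now named SSPOP and classed by RefSeq as a transcribed pseudogene, differed by -0.13 and 0.02. LINC00686 differed by -0.13 and 0.47, with a siPOTEF-AS1 vehicle signal of 7.02 against 7.41 to 7.53 on the other arrays.

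Among the 42 dimmer members, whose values are given without a test and were named after being seen, ZNRD1-AS1 had the largest mean DHT difference in the same direction in both arms. It runs opposite the gene of an RNA polymerase I subunit, is now named POLR1HASP and is classed by RefSeq as a transcribed pseudogene. Its signal was 6.66 and 6.73 in vehicle and 6.25 and 6.05 in DHT, differences of -0.41 and -0.68, with the treatments apart. The sense gene ZNRD1 itself had 6.62 and 6.65 in vehicle against 6.85 and 6.73 in DHT, so that the sense and antisense differences had opposite signs in both arms. Neither the sense nor the antisense probe set passed the filter. MATN1-AS1, antisense to a cartilage matrix gene, had 6.20 on both vehicle arrays against 6.44 and 6.57 in DHT. Past the threshold of 1.5-fold lay 4 dim or bright members in siControl cells, ENSG00000270154, SETD5-AS1, LINC00478 and LINC00528, all lower, against 5% of annotated probe sets in either direction without the filter and 2.33% lower. In siPOTEF-AS1 cells it was also 4, against 7.27%, with LINC00523 higher and ZNRD1-AS1, ENSG00000265758 and SNAI3-AS1 lower. No member was 1.5-fold apart the same way in both arms, against 3.01% of annotated probe sets. Over all 61 members the arms' DHT differences correlated with r = -0.16, against 0.60 over the annotated probe sets. The correlation depends on signal, and below the filter it was -0.37 over the 42 members and 0.27 over the annotated probe sets.

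Knockdown of POTEF-AS1 was first looked for in its target, but 0 probe sets carried its symbol or a RefSeq accession of it, so that the knockdown itself was not checked. None of the members past the filter differed by 2-fold or by 1.5-fold between siPOTEF-AS1 and siControl cells, in vehicle or in DHT. The background at 2-fold was 0.0381% in vehicle and 0.061% in DHT, and at 1.5-fold 0.725% and 0.923%. With limma 0 of 19 members passed an adjusted p of 0.05, as did 0 of the 13108 probe sets, a background of 0%. At an unadjusted p under 0.05 there were 2 members, both LINC00328 copies, against 6% of probe sets. These were the first and the third copy, whose knockdown differences were -0.35 in vehicle for each and -0.17 and -0.21 in DHT, with adjusted p-values in limma of 0.785 and 0.711. The second copy differed by -0.29 and -0.12. Both siControl arrays lay above both siPOTEF-AS1 arrays in the second and the third copy, 2 of 19 members, against 8.54% of probe sets, whereas in the first the arms overlapped.

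In ZNF503-AS2 alone among the 19 both siPOTEF-AS1 arrays lay above both siControl arrays, an order of 11.1% of probe sets. Its signals were 7.26 and 7.48 with siPOTEF-AS1 and 7.17 and 7.12 with siControl, and its adjusted p in limma was 0.899. The gene it was named after, ZNF503, had 5.49 and 5.70 against 5.57 and 5.61, below the filter and overlapping. LINC00478 differed with knockdown by -0.02 and 0.09. The median knockdown difference of the 19 members stood at -0.01 for vehicle and 0.09 for DHT; it was 0.03 and -0.01 over annotated probe sets past the filter. Between vehicle and DHT, knockdown differences correlated with r = 0.02 over the 19 members and r = 0.07 over the background.

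Without the filter, 6 of 61 members differed by 1.5-fold with knockdown in vehicle, against 1.6% of probe sets. All 6 were below the filter, where 131 of 13079 annotated probe sets were higher and 192 lower. SETD5-AS1 at -1.13, ENSG00000270154, LINC00523, MACROD2-IT1 and LINC00528 were lower, and ENSG00000265758 was higher, at 0.59. SETD5-AS1 was the 1 member at 2-fold, against 0.13%, and below the filter 16 annotated probe sets were 2-fold higher and 13 lower. In DHT they were 2, against 1.41%, CLTC-IT1 at 0.69 and LINC00216 at -0.72. No member was 1.5-fold apart the same way in both treatments, a background of 0.118%.

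The DHT response with siPOTEF-AS1 was then set against that with siControl, the comparison closest to the design's question. It uses all 4 arrays and leaves no residual degree of freedom, so that no test was possible. No member past the filter differed by 2-fold, against 0.175% of probe sets, and 2 differed by 1.5-fold, against 2.69%. These were C14orf169, at 0.62, and LINC00686, at 0.60, both with a response above that of siControl cells, as in 1.5% of probe sets. C14orf169 (current symbol RIOX1; chromosome 14, 73957669 to 73960096, plus strand, GRCh37) had 7.26 in siControl vehicle, 7.03 in siControl DHT, 6.84 in siPOTEF-AS1 vehicle and 7.23 in siPOTEF-AS1 DHT cells. In each the siPOTEF-AS1 vehicle array was the lowest of the 4. LINC00478 differed between its responses by 0.11.

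Of all 61 members, 43 had a response above that of siControl cells, 70.5% against 49.5% of annotated probe sets, or 39 to 40 under the other scalings. Among annotated probe sets below the filter the share was 57.6%, and in the Rinn and Broad catalogues it was 59.9%. The median difference of the responses was 0.16 over the members, 0.06 over those dim probe sets and 0.06 over the catalogues. The highest array of a member was that of siControl vehicle in 23 of 61, 37.7%, against 22% of annotated probe sets, and that of siControl DHT in 8, 13.1% against 21.3%. In the catalogues the shares were 32.5% and 14.9%. With 1 array per group, a property of the siControl vehicle array and an effect of its group cannot be told apart.

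**Figure D3:**
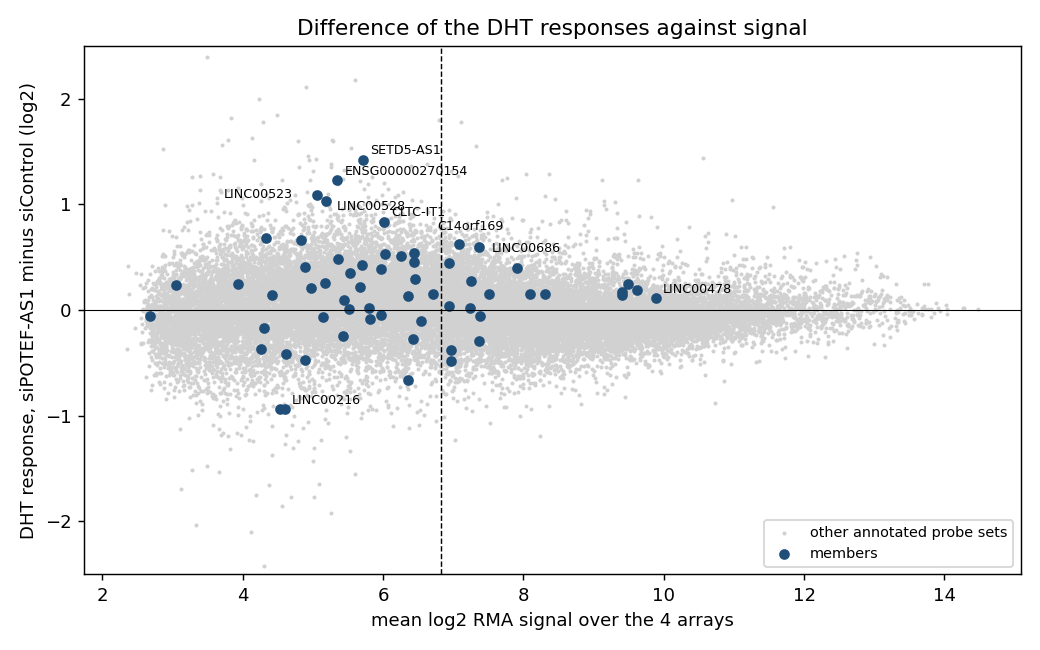
Difference of the DHT responses, siPOTEF-AS1 minus siControl on the log2 scale (y axis), against mean log2 signal (x axis) for members (blue) and other annotated probe sets (grey), with the filter at 6.82 as a dashed line. The members at 1.04 and above are SETD5-AS1, ENSG00000270154, LINC00523 and LINC00528, all left of the line, where the grey points spread most.

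Of all 61 members, 4 differed by 2-fold between the responses, all of them below the filter, against 0.596% of annotated probe sets without it. At 1.5-fold it was 12, against 5.72%, C14orf169 and LINC00686 included, of which 9 were higher and 3 lower with siPOTEF-AS1, against 3.55% and 2.17%. Dim probe sets differed more often. Of 13079 annotated ones below the filter, 81 were 2-fold higher and 52 lower, against 4 and 0 of the 42 members there. At 1.5-fold these were 732 and 413, against 7 and 3 members. SETD5-AS1, now named THUMPD3-AS1 and originally named for the neighbouring gene of a chromatin regulator, had 6.36 in siControl vehicle, 5.48 in siControl DHT, 5.23 in siPOTEF-AS1 vehicle and 5.77 in siPOTEF-AS1 DHT cells. Only the siControl vehicle array was high, and the responses were -0.88 and 0.54. ENSG00000270154, an intergenic transcript (chromosome 8, 12333971 to 12334631, plus strand, GRCh37), likewise had 6.05 in siControl vehicle cells and 5.04 to 5.27 on the other arrays. LINC00528 had 5.53 and 5.36 in siControl vehicle and siPOTEF-AS1 DHT cells, and 4.94 and 4.91 in the others. LINC00523 had 5.39, 4.99, 4.59 and 5.28 in siControl vehicle, siControl DHT, siPOTEF-AS1 vehicle and siPOTEF-AS1 DHT cells, so that the siPOTEF-AS1 vehicle array was the lowest.

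**Figure D4:**
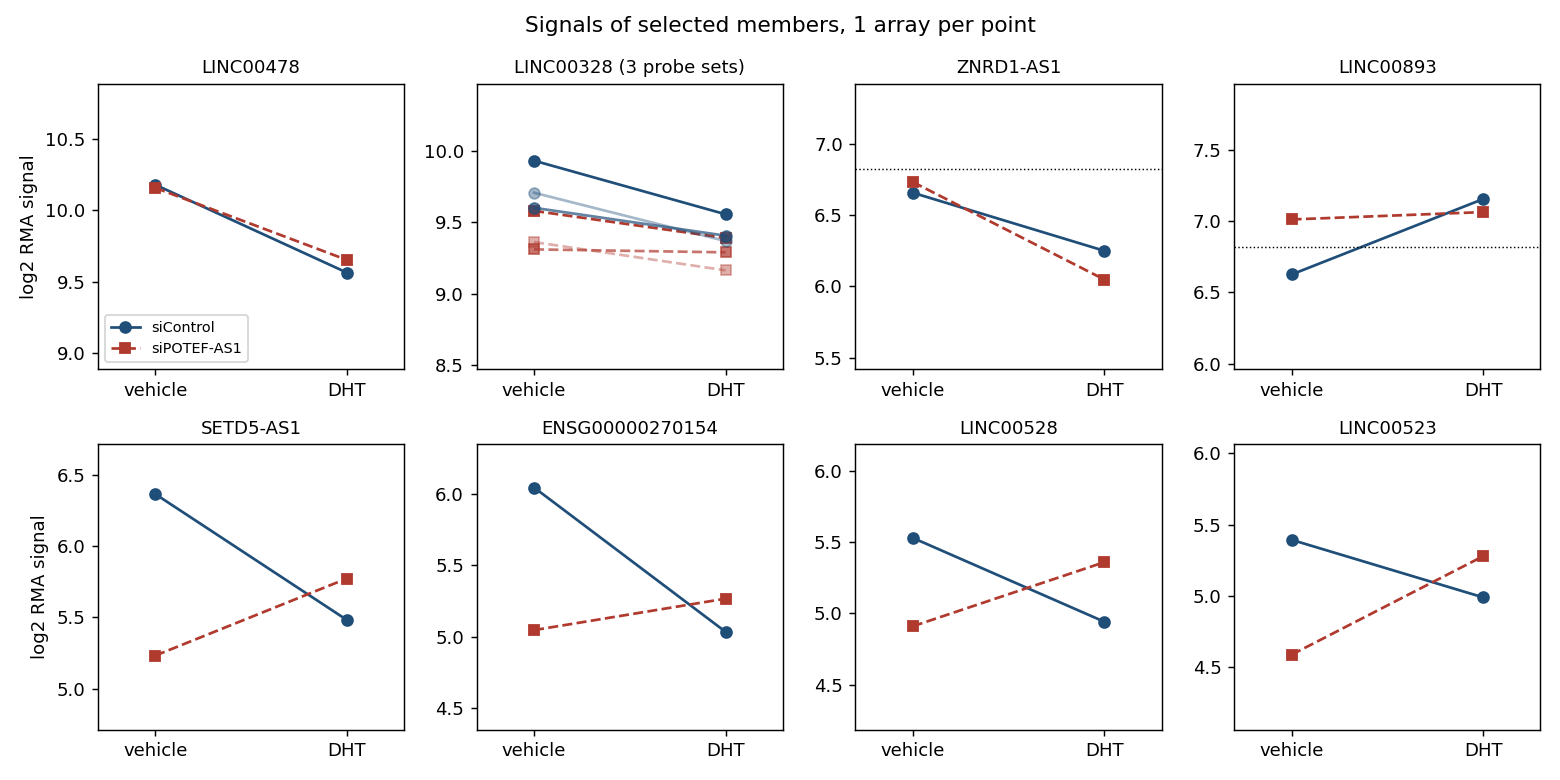
Log2 RMA signal (y axis, each panel spanning the same range) in vehicle and DHT (x axis) for siControl (circles, solid lines) and siPOTEF-AS1 (squares, dashed lines), 1 array per point, with the filter dotted where it falls in the panel. LINC00478 and ZNRD1-AS1 slope downward in both arms, whereas in the 4 lower panels the siControl line falls and the siPOTEF-AS1 line rises.

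CLTC-IT1, from an intron of the clathrin heavy chain gene, followed with a difference of 0.84, its siPOTEF-AS1 DHT signal of 6.41 being the highest of its 4. MACROD2-IT1, at 0.68, and HPN-AS1, at 0.67, the latter beside the gene of the serine protease hepsin, completed the higher members. Of the 3 lower ones, LINC00216 and ENSG00000265758 both stood at -0.94, and SNAI3-AS1, opposite a gene of the Snail family of repressors, at -0.66. SNAI3-AS1 had 6.78 in siPOTEF-AS1 vehicle cells and 6.17 to 6.27 on the other arrays.

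Names could be looked up for few genes, since 2540 annotated probe sets carried 1 symbol, 156 were named by a RefSeq accession, and 19068 carried a UCSC transcript ID and no gene name. Of 20 members named after a sense gene, 3 had that gene among the named probe sets, and the other sense genes were not analysed here. ZNRD1 and ZNF503 are given above. FAM83A, a gene of a signalling adaptor, had 6.90 and 6.64 in vehicle and 7.02 and 6.96 in DHT, so that the DHT arrays lay above the vehicle arrays, and FAM83A-AS1 had 5.54 and 5.44 against 5.41 on each DHT array.

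Of 158 RNAs on 7 lists of known long noncoding RNAs, 10 were found among the named probe sets and 1, LINC00478, was a member, and the rest were not analysed here. The androgen- or prostate-cancer-linked list had 2 of 44 measured. TUG1, a widely expressed nuclear RNA, differed with DHT by -0.08 and -0.09, and UCA1, known from bladder cancer, was below the filter. On the snoRNA host list ZFAS1 was measured, with 8.68 on each vehicle array against 8.27 and 8.40 in DHT, differences of -0.40 and -0.28 and a limma adjusted p of 0.0509. The imprinted list had 4 RNAs on 12 probe sets, of which the brightest of each is given, with H19 at -0.00 and 0.18, IGF2-AS at 0.19 and 0.25, and MEG9 and WT1-AS below the filter. MIR137HG, the other measured microRNA host, was also below it, and TP53TG1 on the p53-linked list differed by 0.31 and 0.04. The 20 antisense RNAs of the HOX clusters were not among the named probe sets. Outside the lists, and named after its value was seen, CDR1_AS, a known antisense RNA that holds sites for a microRNA, had 8.39 and 8.37 in vehicle against 7.97 and 7.71 in DHT. It fell with DHT, by differences of -0.43 and -0.66, with a limma adjusted p of 0.0131. It was picked from the probe sets annotated from the lncRNAdb catalogue. Among these p53_mrna was also called, at -0.81 and -0.91 with a limma adjusted p of 0.0015. Of all tested probe sets, 16.2% were called for DHT. The PTENP1 pseudogene RNA differed by -0.34 and -0.29, with an adjusted p of 0.0615, and SRA, known as a steroid receptor coactivator RNA, by 0.30 and -0.16.

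The 4 arrays had median log2 signals between 6.72 and 6.77, and they correlated pairwise over all probe sets with r from 0.988 to 0.995. Of 13 markers of luminal prostate cells 1 was among the named probe sets, TARP, a transcript of prostate epithelium, with signals from 7.90 to 10.995, above the filter's value on every array. The other 12 were not analysed here, so the cell label was checked by 1 marker. The basal keratin genes KRT5 and KRT15 had signals from 5.28 to 6.57, below the filter's value on every array. In bulk RNA, fewer cells that express a gene and less of its RNA per cell cannot be told apart.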

How the data were processed

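The authors deposited log2 values per probe set. The submitters' processing notes name Affymetrix Expression Console and RMA, without versions. RMA subtracts background and equalises the distributions of the arrays, which compresses differences of dim probe sets. A second deposited table held the same log2 values within 1.78e-15. Coordinates are GRCh37, per the file's description column.

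Annotated rows that repeated another's 4 values were dropped, leaving 26187 of 26722. Those with a mean of at least 6.82 over the arrays, 13108, were tested with limma 3.58.1 in R 4.3.3, with siRNA and hormone as additive terms and Benjamini-Hochberg adjustment. With 1 array per group, single differences had no test and no replicate check. A p here sets the effect of both arms against an error that joins their disagreement with a variance pooled over probe sets. The pooled variance weighed more, with 6.11 prior degrees of freedom against 1 residual. With arrays centred on their medians only the pooled variance counted. The code was tested on simulated data. Sequences are those of RefSeq, GRCh38.p14.

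Members and lists were chosen with earlier results of these data known. The rule for named members took those at 1.5-fold the same way in both arms (there were none), those at 1.5-fold between responses, the 10 brightest past the filter and those on a list. Others were named after their values were seen. One motif and one marker are not reported here.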

Additional observations from a re-analysis of the deposited data

Results flagged for a closer look

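In 4 members the DHT differences of the siRNA arms pointed in opposite directions and lay 2-fold or more apart. The difference of the responses was 1.42 on the log2 scale for SETD5-AS1, 1.23 for ENSG00000270154, 1.09 for LINC00523 and 1.04 for LINC00528. All 4 signals were below the filter at 6.82, each arm was a single pair of arrays, and the difference was not tested. The siControl vehicle array was the highest of the 4 arrays in each of these members.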

How the results depend on the processing

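Array scaling (centring on medians, quantile normalization, removal of the intensity trend), the signal filter, the membership rule, the fold and limma's settings were varied one at a time. Without the filter, the counts at 2-fold became 1 for DHT in siControl cells, 1 for knockdown in vehicle and 4 for the difference of the responses, and limma called 0 members for DHT, since LINC00478, at -0.56, had an adjusted p of 0.0642. At 1.5-fold the counts past the filter became 1 for DHT in siControl cells and 2 for the difference of the responses. Without the filter and at 1.5-fold, a combination chosen after seeing the data, they were 4 and 4 for DHT in siControl and siPOTEF-AS1 cells, 6 and 2 for knockdown in vehicle and DHT, and 12 for the responses. Limma called 3 members for DHT with the filter at the 75th percentile and 3 with an intensity trend. The 330 values of 22 named members under another scaling all moved by less than the robust SD of the annotated probe sets. That SD ran from 0.14 to 0.27, as large as many of the named differences, and values near 0 could change sign. With centring, BAIAP2-AS1 went from -0.03 to 0.005 for DHT in siControl cells. LINC00478 went from -0.02 to 0.03 for knockdown in vehicle. No paired analysis was possible because each group holds 1 array. The missing detection calls and the number of arrays limit what dim members can show.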
